A study of Homo sapiens with 3 samples.

Results

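The proteasome subunit genes were followed across UM-UC-3 cells, an established human bladder cancer line, in which the mRNA of the histone methyltransferase cofactor WDR5 was knocked down. The members were all probe sets whose sole gene symbol in the array annotation was PSMA, PSMB, PSMC, PSMD, PSME, PSMF or PSMG with a number, apart from the interferon-inducible PSMB8, PSMB9, PSMB10, PSME1 and PSME2. This gave 39 genes with 96 probe sets, of 18155 genes and 49293 probe sets in all. The cells received si-WDR5-2, si-WDR5-3 or a negative control siRNA at 75 nM by lipofection, and RNA was taken after 48 h. According to the labels, si-WDR5-2 is directed at position 999 and si-WDR5-3 at position 585 of the WDR5 coding sequence. Each condition was measured on 1 Affymetrix PrimeView array, and the spread between cultures of 1 condition is therefore unknown. The knockdowns were transient and in 1 cell line, and both were compared with the same control array.

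The siRNA sequences are shown because some members differed between the reagents as well as from the control. Each is given in lower case from its 5′ end as the labels list it, with tt as the overhang.
si-WDR5-2: gcucagaggauaaccuugutt
si-WDR5-3: cccaguccaaccuuauugutt
control siRNA: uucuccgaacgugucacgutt

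The proteasome is the protease complex that degrades ubiquitin-tagged proteins in the nucleus and cytoplasm. Its barrel-shaped core particle is built of outer rings of PSMA subunits and inner rings of PSMB subunits, among which PSMB5, PSMB6 and PSMB7 carry the active sites. A regulatory particle caps the barrel, with PSMC ATPases that unfold and feed in the substrate and PSMD subunits that bind ubiquitin and remove it. The genes of the complex are commonly expressed together, and NFE2L1 is a transcription factor that raises them when proteasome activity is short.

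WDR5 itself had intensities of 204 and 218 after si-WDR5-2 and 315 and 306 after si-WDR5-3, against 1013 and 947 after control siRNA, for its 2 probe sets, or 0.215 and 0.317 times the control. The median intensities of the arrays were 149.9, 151 and 151 after si-WDR5-2, si-WDR5-3 and control siRNA. The 8 interferon-induced genes past the filter had a median log2 ratio to control of 1.84 after si-WDR5-2 and -0.65 after si-WDR5-3. For 6 proliferation genes the medians were -0.76 and -0.26 after si-WDR5-2 and si-WDR5-3. They ranged from -0.88 (TOP2A) to -0.53 (MCM2) after si-WDR5-2. After si-WDR5-3 they lay on both sides of the control, from -0.95 (RRM2) to 0.11 (MCM2). The part of the interferon-induced and proliferation genes in the values of the proteasome genes was not tested. Of 11 epithelial and urothelial markers, KRT7, KRT8, KRT18, UPK1B and UPK3A had a probe set past the filter, while EPCAM, CDH1, KRT19, GATA3, UPK2 and PPARG did not. Those past it had log2 ratios from -0.49 (KRT18) to 0.21 (KRT8) after si-WDR5-2 and from -0.07 (UPK1B) to 0.12 (KRT18) after si-WDR5-3. PPARG, though below the filter, was at 0.67 and 0.62 for the same siRNAs. All 3 mesenchymal markers were past the filter. Their log2 ratios after si-WDR5-2 and si-WDR5-3 were -0.35 and -0.13 for VIM, 0.30 and 0.50 for CDH2 and 1.04 and 0.67 for FN1. Among markers of blood, vessel and other cells, PTPRC and CD14 were below the filter. CD3E, PECAM1, VWF and HBB passed it, with log2 ratios between -0.16 and 0.07 after either siRNA. Their intensities after control siRNA were 176, 274, 211 and 310. Those of KRT7, KRT8, UPK3A, UPK1B and KRT18 were 166, 176, 169, 235 and 1725. Passing the filter therefore does not by itself separate these kinds of marker. In bulk RNA, fewer cells of a kind and less RNA per cell cannot be told apart.

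As a group the proteasome genes stayed close to the control with both siRNAs. The value of a gene was the median log2 ratio over its probe sets whose mean log2 level reached the median of all probe sets, 152 as an intensity, and 37 of the 39 genes had such a probe set. Where a gene has several probe sets, this value need not equal the ratio of their median intensities. The median over these 37 genes was -0.08 after si-WDR5-2 and -0.10 after si-WDR5-3, beside -0.02 and 0.00 after si-WDR5-2 and si-WDR5-3 over all 11501 genes past the filter. Below the control were 25 of 37 genes after si-WDR5-2 (67.6%, against 54.4% of all genes) and 27 after si-WDR5-3 (73.0%, against 50.3%), and 20 were below it with both (54.1%, against 35.1%). The gene values had an SD of 0.23 after si-WDR5-2 and 0.22 after si-WDR5-3, where all genes had 0.35 and 0.26 on the same arrays. Because both ratios contain the same control array, they are not independent. For si-WDR5-2 over si-WDR5-3 directly, the median was -0.01 for the 37 genes and -0.02 for all genes, with SDs of 0.23 and 0.34.

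**Figure D1:**
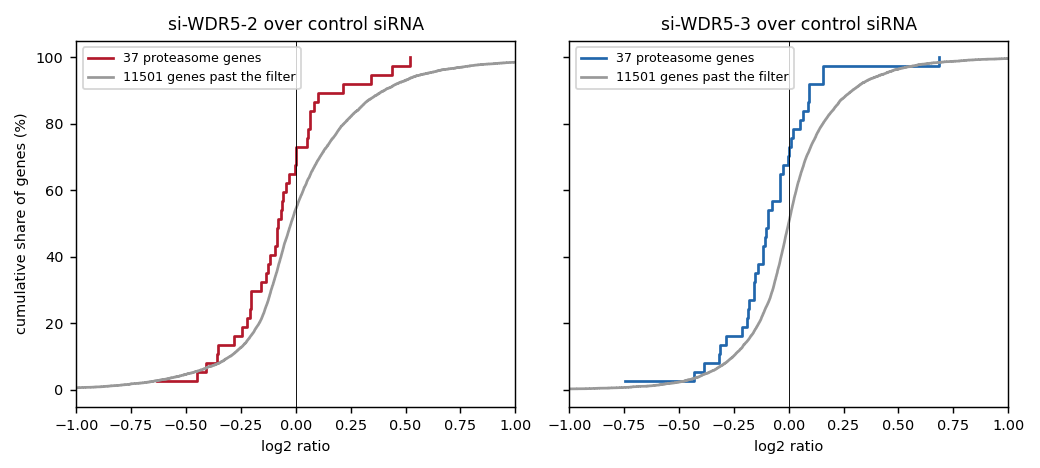
Cumulative share of genes (vertical axis, percent) against the log2 ratio to control siRNA (horizontal axis) for the 37 proteasome genes (coloured) and all 11501 genes past the filter (grey), after si-WDR5-2 on the left and si-WDR5-3 on the right. The coloured lines lie to the left of the grey ones near 0, with medians of -0.08 and -0.10 against -0.02 and 0.00.

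A log2 difference of 0.3, or 1.23 times in either direction, served as the size past which a gene was counted. With si-WDR5-2, 5 of 37 proteasome genes were lower by this size (10.1% of all genes were) and 3 were higher (14.7% of all genes). With si-WDR5-3, 5 were lower (7.55% of all genes) and 1 was higher (9.44%). With both siRNAs, 2 were lower (2.99% of all genes) and 1 was higher (5.30%). These counts of members are 13.5% and 8.11% after si-WDR5-2, 13.5% and 2.70% after si-WDR5-3, and 5.41% and 2.70% with both, so the shares of lower genes were near or somewhat above those of all genes and those of higher genes were below. In all, 26 of 37 genes (70.3%) lay within 0.3 of the control with each siRNA, against 67.6% of all genes. No p-value belongs to these counts, since each condition is 1 array.

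Genes of the regulatory particle made up 8 of the 11 that passed the size with at least 1 siRNA, and the core particle 1. Passing it with at least 1 siRNA were 8 of 14 regulatory genes (57.1%), 1 of 13 core genes (7.69%) and 11 of all 37 (29.7%), against 32.4% of all genes. The 14 measured subunit genes of the regulatory particle had a median of -0.23 after si-WDR5-2 and -0.13 after si-WDR5-3. For the 13 measured core genes the medians were -0.08 and -0.10 for the same siRNAs, and for all genes -0.02 and 0.00. With si-WDR5-2 the regulatory genes ranged from -0.63 to 0.44 and the core genes from -0.21 to 0.10. The difference between the particles was not tested.

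**Figure D2:**
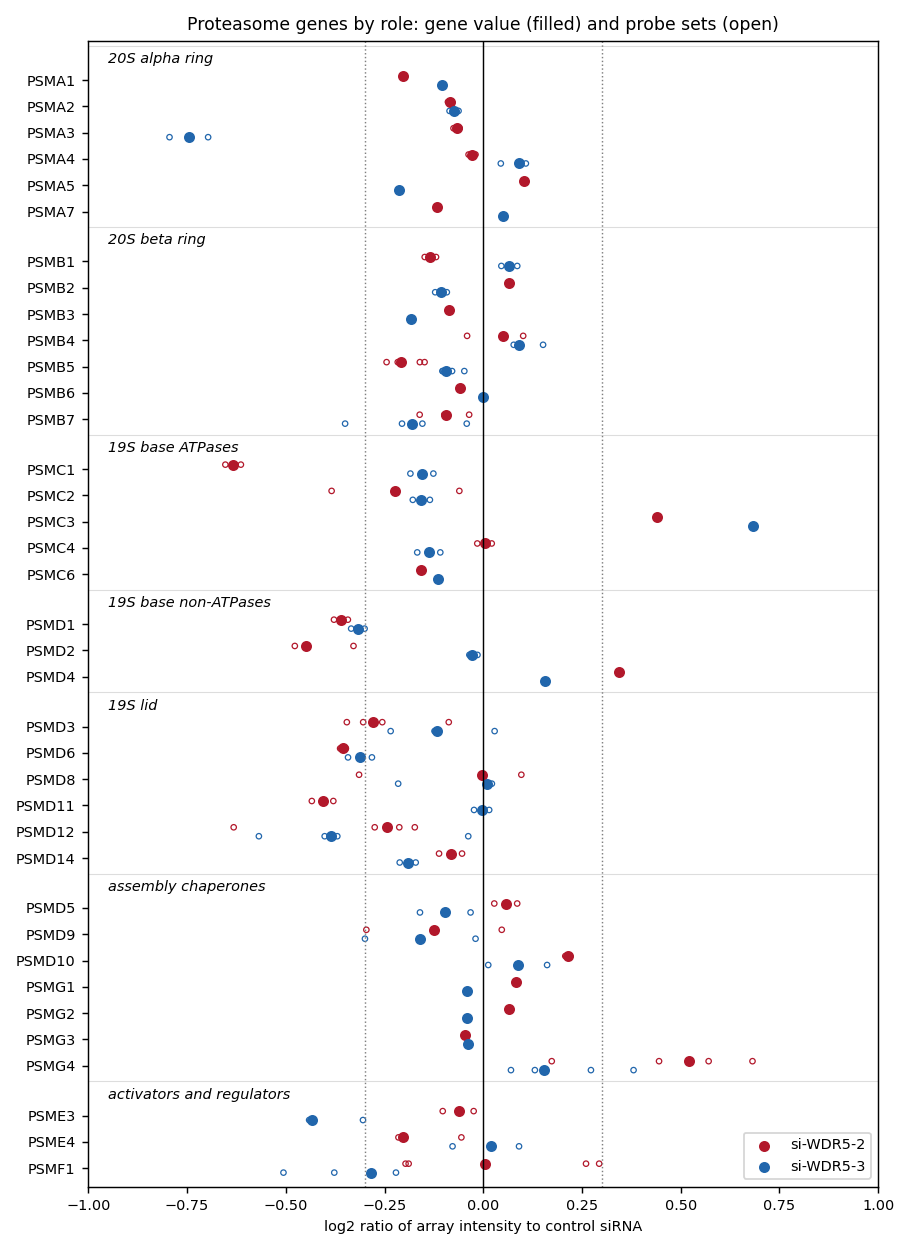
Log2 ratio of array intensity to control siRNA (horizontal axis) for each of the 37 proteasome genes, grouped by role, after si-WDR5-2 in red above si-WDR5-3 in blue. Filled points are gene values, open points single probe sets and dotted lines a log2 ratio of 0.3 in either direction. PSMD1 and PSMD6 lie left of the dotted line with both siRNAs, and PSMC3 lies right of it with both.

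The members lower by 0.3 with both siRNAs were PSMD1 and PSMD6. PSMD1, the large scaffold subunit of the base of the regulatory particle, had intensities of 1379 and 1624 after si-WDR5-2 and 1421 and 1673 after si-WDR5-3, against 1792 and 2060 after control siRNA. Both knockdown arrays were thus below the control array for both probe sets. Its gene value was 0.779 times the control after si-WDR5-2 (log2 -0.36, probe sets -0.38 and -0.34) and 0.802 times after si-WDR5-3 (log2 -0.32, probe sets -0.33 and -0.30). PSMD6, a lid subunit, had 1188 and 1004 after si-WDR5-2 and 1205 and 1051 after si-WDR5-3, against 1528 and 1278 after control siRNA. These are 0.782 and 0.805 times the control after si-WDR5-2 and si-WDR5-3. The probe set ratios of PSMD6 ran from -0.36 to -0.35 after si-WDR5-2 and from -0.34 to -0.28 after si-WDR5-3. For both genes the siRNAs differed from each other by 0.04 on the log2 scale, less than either differed from the control. The value of PSMD6 after si-WDR5-3 was close to the limit, at -0.31, and did not pass it with an offset before log2 (-0.29) or without its _x_at probe set (-0.28), so that PSMD1 alone was then lower with both.

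PSMC3, one of the ATPases of the base, was the only member higher by 0.3 with both siRNAs. Its single probe set had an intensity of 832 after si-WDR5-2 and 985 after si-WDR5-3, against 613 after control siRNA. The ratios were 1.36 times (log2 0.44) and 1.61 times (log2 0.68) the control after si-WDR5-2 and si-WDR5-3. Of the other ATPase genes measured, PSMC1, PSMC2 and PSMC6 were below the control with both siRNAs and PSMC4 was at 0.00 after si-WDR5-2 and -0.14 after si-WDR5-3. No second probe set of PSMC3 was there to check it.

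**Figure D3:**
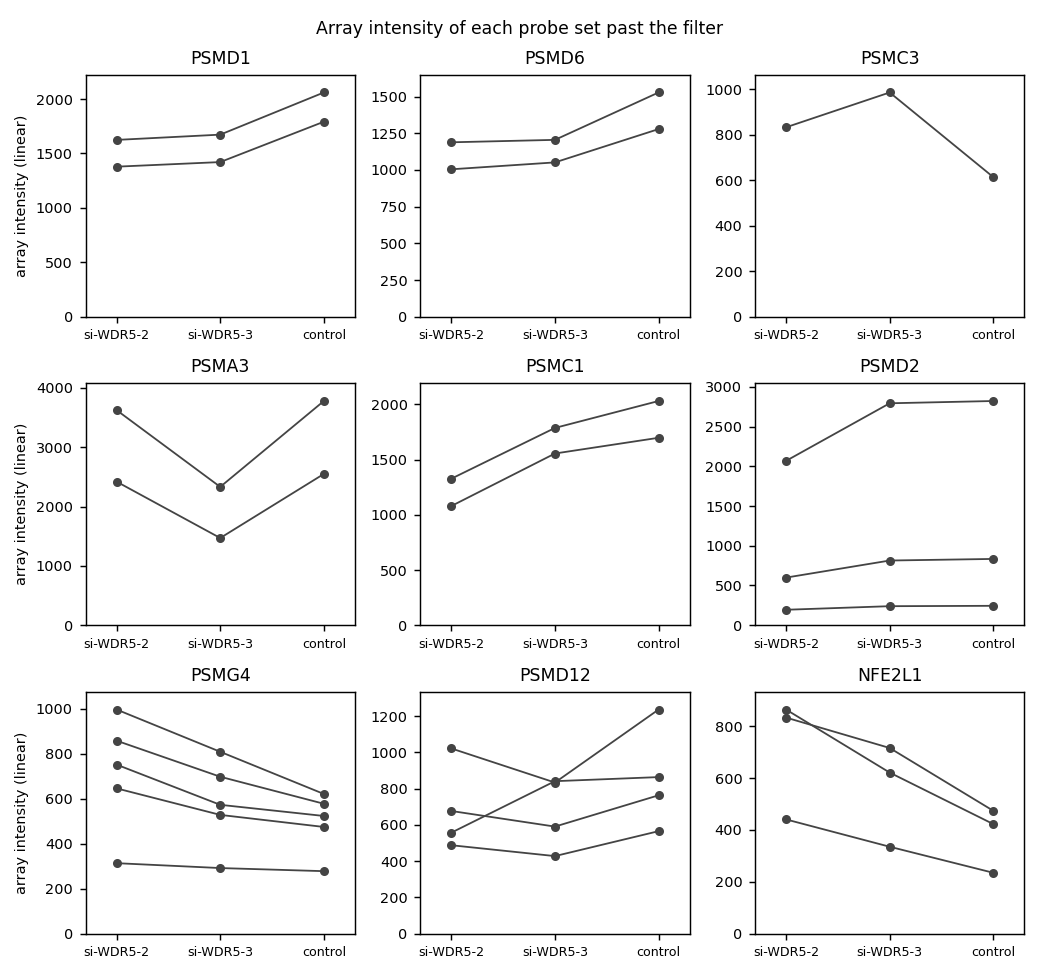
Array intensity on a linear axis from 0 after si-WDR5-2, si-WDR5-3 and control siRNA, 1 array each, for 8 proteasome genes and NFE2L1. Each line is a probe set past the filter. Lines of PSMD1 and PSMD6 are highest in the control, that of PSMC3 is lowest there, and those of PSMA3 dip after si-WDR5-3 alone.

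PSMA3, a subunit of the outer ring of the core, was the member with the largest difference between the siRNAs. It had intensities of 2419 and 3624 after si-WDR5-2, 1470 and 2331 after si-WDR5-3, and 2549 and 3778 after control siRNA. The si-WDR5-3 array was the low one for both probe sets, while the si-WDR5-2 array was near the control. The gene was at 0.954 times the control after si-WDR5-2 (log2 -0.07) and at 0.596 times after si-WDR5-3 (log2 -0.75, probe sets -0.79 and -0.70), a difference of 0.68 between the siRNAs. Of the other outer ring genes none passed 0.3 after either siRNA. PSMA1 was at -0.20 and -0.10, PSMA2 at -0.08 and -0.07, PSMA4 at -0.03 and 0.09, PSMA5 at 0.10 and -0.21 and PSMA7 at -0.12 and 0.05 after si-WDR5-2 and si-WDR5-3. PSMA8, a subunit gene of the testis, lay below the filter with intensities of 85.6 and 81.1 after si-WDR5-2 and si-WDR5-3, against 86.6 after control siRNA.

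Promoters are shown for the 4 genes described so far, each of which passed the size with every probe set on at least 1 array. PSMC1, PSMD2, PSMD4, PSMD11 and PSME3 did so too, and their promoters are not printed. The windows run from 250 bases before to 50 bases after the RefSeq gene start on GRCh38.p14, 5′ to 3′ in the direction of the gene. CCAAT, the box bound by NFY, is in capitals on either strand (ATTGG is its reverse complement).
PSMD1 promoter (chr2:231056617-231056916, plus strand): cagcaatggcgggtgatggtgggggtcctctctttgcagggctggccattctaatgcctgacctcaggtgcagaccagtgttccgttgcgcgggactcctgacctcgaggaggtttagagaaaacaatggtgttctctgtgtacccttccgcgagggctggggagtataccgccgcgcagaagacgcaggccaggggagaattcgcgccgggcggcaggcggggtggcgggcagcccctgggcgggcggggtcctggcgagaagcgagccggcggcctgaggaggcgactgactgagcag
PSMD6 promoter (chr3:64023445-64023744, minus strand): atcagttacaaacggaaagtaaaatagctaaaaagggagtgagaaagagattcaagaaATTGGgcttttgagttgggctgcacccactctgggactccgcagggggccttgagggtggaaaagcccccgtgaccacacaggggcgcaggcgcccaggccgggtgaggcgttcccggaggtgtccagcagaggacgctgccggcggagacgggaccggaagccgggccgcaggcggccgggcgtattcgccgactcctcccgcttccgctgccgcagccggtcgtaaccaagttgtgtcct
PSMC3 promoter (chr11:47426390-47426689, minus strand): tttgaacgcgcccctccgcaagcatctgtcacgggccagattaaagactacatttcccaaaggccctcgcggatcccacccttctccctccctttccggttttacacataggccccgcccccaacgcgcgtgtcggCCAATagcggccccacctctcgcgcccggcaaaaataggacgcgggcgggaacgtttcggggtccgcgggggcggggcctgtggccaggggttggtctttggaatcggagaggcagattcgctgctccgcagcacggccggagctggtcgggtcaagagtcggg
PSMA3 promoter (chr14:58244593-58244892, plus strand): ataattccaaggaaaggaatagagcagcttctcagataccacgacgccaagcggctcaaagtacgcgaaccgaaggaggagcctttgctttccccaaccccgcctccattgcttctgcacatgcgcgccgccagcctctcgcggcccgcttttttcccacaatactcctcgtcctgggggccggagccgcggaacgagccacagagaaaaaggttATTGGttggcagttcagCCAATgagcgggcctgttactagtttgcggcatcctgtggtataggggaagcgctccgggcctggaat

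The reference held promoter windows for 33 of the 39 members, 39 windows in all, and those of PSMA7, PSMB1, PSMB6, PSMB7, PSMD4 and PSMG3 were not used here. CCAAT was found on either strand in 17 of the 39 windows (43.6%), against 34.6% of all 35116 windows of the same length. It was in the windows of PSMA3, PSMC3 and PSMD6, which lay on different sides of the control, and not in that of PSMD1. The letters TGACTCA, a core motif of NFE2L1 and related factors, were in 2 member windows, those of PSMD2 and PSMD9 (5.13%, against 4.95% of all), and the longer TGACTCAGC, which contains them, in 0 (0.561% of all). CACGTG, the box bound by MYC and related factors, was in 3, those of PSMB3, PSMD9 and PSME3 (7.69%, against 7.26%). GCCGGAAG, a motif of ETS factors, was in those of PSMC1 and PSMF1 (5.13%, against 3.72%). A match is a run of letters and not a site.

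None of the inner ring genes passed 0.3 after either siRNA. The active site gene PSMB5, of the chymotrypsin-like activity, had 5 probe sets with a median intensity of 1093 after si-WDR5-2 and 1191 after si-WDR5-3, against 1258 after control siRNA. All 5 were below the control with both siRNAs, from -0.24 to -0.15 after si-WDR5-2 and from -0.10 to -0.05 after si-WDR5-3. PSMB6, of the caspase-like activity, had 3766 and 3920 after si-WDR5-2 and si-WDR5-3, against 3920 after control siRNA, so that its 3 arrays were within 0.06 of each other on the log2 scale. PSMB7, of the trypsin-like activity, had a median intensity of 2565 after si-WDR5-2 and 2331 after si-WDR5-3, against 2793 after control siRNA. It was at 0.936 times the control after si-WDR5-2 and 0.883 times after si-WDR5-3 over 4 probe sets, which ranged from -0.16 to -0.04 after si-WDR5-2 and from -0.35 to -0.04 after si-WDR5-3. PSMB1 was at -0.13 and 0.07, PSMB2 at 0.07 and -0.11, and PSMB3 at -0.09 and -0.18 after si-WDR5-2 and si-WDR5-3. PSMB4, one of the highest members on average, had a median of 1994 after si-WDR5-2 and 2032 after si-WDR5-3, against 1927 after control siRNA, and its gene value was 1.03 and 1.07 times the control for these siRNAs in turn. The thymus subunit gene PSMB11 lay below the filter, at 67.4 and 72.1 after si-WDR5-2 and si-WDR5-3 and 73.5 after control siRNA, where the lowest value of the arrays was 45.5.

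In the ATPase ring PSMC1 had the lowest ratio of any member after si-WDR5-2. Its intensities were 1327 and 1079 after si-WDR5-2 and 1787 and 1555 after si-WDR5-3, against 2031 and 1698 after control siRNA. The si-WDR5-2 array was the low one for both probe sets. The gene was at 0.645 times the control after si-WDR5-2 (log2 -0.63) and at 0.898 times after si-WDR5-3 (log2 -0.16). Both probe sets carry the suffix _x_at, by which Affymetrix marks sets whose probes may also match other transcripts. PSMC2 was at -0.22 and -0.16 after si-WDR5-2 and si-WDR5-3, its probe sets lying at -0.38 and -0.06 on the si-WDR5-2 array, and PSMC6 was at -0.16 and -0.12 for the same siRNAs.

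PSMD2, the other large scaffold subunit of the base, was low after si-WDR5-2 alone. Its 3 probe sets had 599, 2068 and 195 after si-WDR5-2 and 814, 2793 and 239.6 after si-WDR5-3, against 834, 2821 and 244 after control siRNA. Ratios were 0.733 times the control after si-WDR5-2 (log2 -0.45, probe sets -0.48 to -0.33) and 0.981 times after si-WDR5-3 (log2 -0.03). PSMD4, a ubiquitin receptor, went the other way: its single probe set had 1424 after si-WDR5-2 and 1251 after si-WDR5-3, against 1122 after control siRNA, or 1.27 and 1.11 times the control for these siRNAs in turn. This probe set is an _x_at set as well.

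In the lid, PSMD11, which helps to hold the lid to the core, was like PSMD2 in being low after si-WDR5-2 alone. It had 993 and 452 after si-WDR5-2 and 1319 and 594 after si-WDR5-3, against 1341 and 588 after control siRNA. This is 0.754 times the control after si-WDR5-2 (log2 -0.41) and 0.997 times after si-WDR5-3. PSMD12 was at 0.845 times the control after si-WDR5-2 (log2 -0.24) and 0.765 times after si-WDR5-3 (log2 -0.39), but its 4 probe sets disagreed. They had 488, 677, 1022 and 557 after si-WDR5-2 and 428, 591, 834 and 841 after si-WDR5-3, against 566, 763, 1236 and 864 after control siRNA. Of these, 3 lay at -0.27 to -0.17 after si-WDR5-2 and -0.57 to -0.37 after si-WDR5-3, and the fourth at -0.63 after si-WDR5-2 and -0.04 after si-WDR5-3. PSMD14, the deubiquitinase of the lid that removes ubiquitin chains from substrates, had 1175 and 2153 after si-WDR5-2 and 1127 and 1930 after si-WDR5-3, against 1269 and 2235 after control siRNA. These are log2 ratios of -0.08 and -0.19 after si-WDR5-2 and si-WDR5-3. PSMD3 was at -0.28 and -0.12 after si-WDR5-2 and si-WDR5-3 over 4 probe sets, and PSMD8 at 0.00 and 0.01, with 1 of its 3 probe sets at -0.31 and -0.22.

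Among the assembly chaperones PSMG4 was the highest member after si-WDR5-2. PSMG4 pairs with PSMG3 and PSMG1 with PSMG2 to help build the outer ring. The median intensity of its 5 probe sets was 751 after si-WDR5-2 and 572.5 after si-WDR5-3, against 523 after control siRNA. All 5 were above the control with both siRNAs, from 0.17 to 0.68 after si-WDR5-2 and from 0.07 to 0.38 after si-WDR5-3, and the gene was at 1.44 and 1.11 times the control. Its partner PSMG3 was at 0.968 and 0.973 times, PSMG1 at 1.06 and 0.972 times and PSMG2 at 1.05 and 0.972 times after si-WDR5-2 and si-WDR5-3. Of the chaperones of the base, PSMD10 (gankyrin) had a median of 865 after si-WDR5-2 and 802 after si-WDR5-3, against 745 after control siRNA. It was at 1.16 times after si-WDR5-2 and 1.06 times after si-WDR5-3, PSMD5 at 1.04 and 0.935 times and PSMD9 at 0.917 and 0.895 times for the same siRNAs.

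Of the activators and regulators, PSME3, the nuclear activator that opens the core without ATP, was low after si-WDR5-3. Its 3 probe sets had 626, 759 and 275 after si-WDR5-2 and 496, 587 and 226 after si-WDR5-3, against 673, 793 and 279.6 after control siRNA. The gene was at 0.957 times the control after si-WDR5-2 (log2 -0.06) and 0.740 times after si-WDR5-3 (log2 -0.43, probe sets -0.44 to -0.30). PSME4, another nuclear activator, had a median of 225 after si-WDR5-2 and 260.2 after si-WDR5-3, against 244 after control siRNA. Its gene value, the median of 3 probe set ratios, was 0.869 times the control after si-WDR5-2 and 1.01 times after si-WDR5-3. PSMF1, which was first described as an inhibitor of the core, was at 1.00 times after si-WDR5-2 and 0.821 times after si-WDR5-3. Its 5 probe sets had 807, 242, 659, 728 and 212 after si-WDR5-2 and 565, 228, 452, 584 and 163 after si-WDR5-3, against 659, 278, 550, 830 and 212 after control siRNA. They lay on both sides of the control after si-WDR5-2, from -0.20 to 0.29, and below it after si-WDR5-3, from -0.51 to -0.22.

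**Figure D4:**
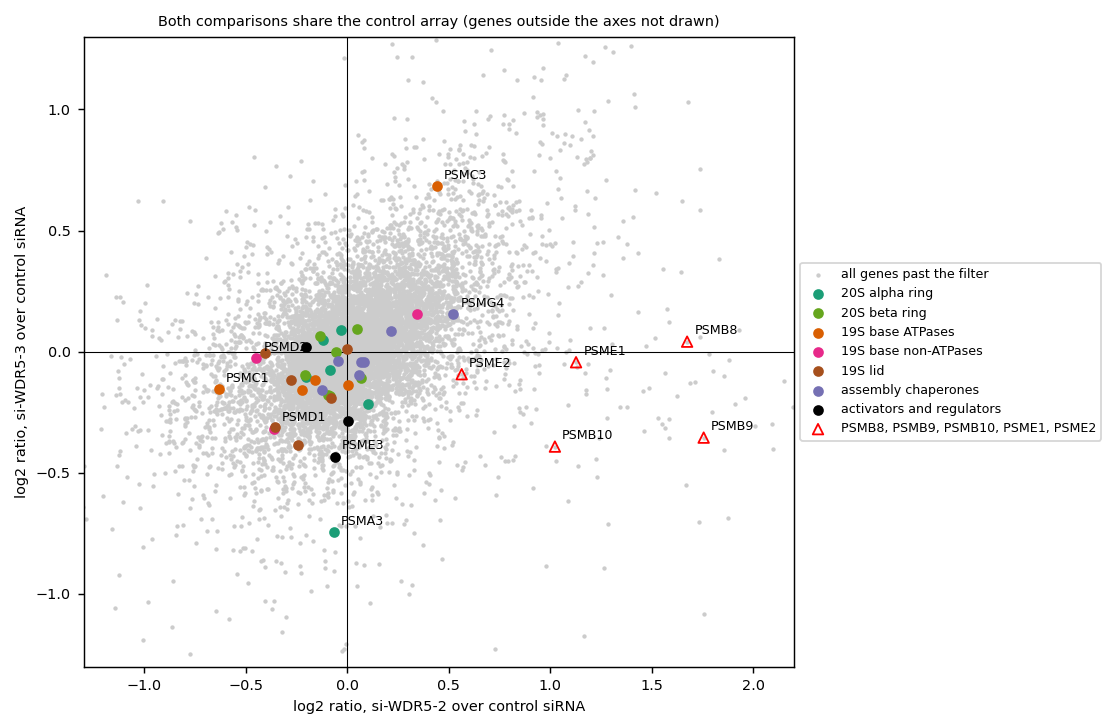
Log2 ratio to control siRNA after si-WDR5-2 (horizontal axis) and after si-WDR5-3 (vertical axis) for the 37 proteasome genes coloured by role, the 5 interferon-inducible genes (red triangles) and other genes past the filter that fall within the axes (grey). The proteasome genes gather near the origin, with PSMC3 at 0.44 and 0.68 and PSMA3 at -0.07 and -0.75, and the triangles lie to the right at 0.56 to 1.75.

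Probe sets of 1 gene gave the only measure of error, which is that of the probes and not of the cells. Among the 26 members with several probe sets past the filter, the median SD over probe sets was 0.04 with each siRNA, against 0.08 and 0.07 over 5823 genes with several. The probe sets of 15 of these members were within 0.1 of each other after si-WDR5-2, and those of 15 after si-WDR5-3. They were more than 0.3 apart for 6 after si-WDR5-2 (PSMC2, PSMD8, PSMD9, PSMD12, PSMF1 and PSMG4) and for 3 after si-WDR5-3 (PSMB7, PSMD12 and PSMG4). The other 11 members rested on 1 probe set past the filter, PSMC3 and PSMD4 among them. With every probe set past the filter, 5 of 5 members passed the size as lower and 2 of 3 as higher after si-WDR5-2, and 3 of 5 as lower and 1 of 1 as higher after si-WDR5-3. Those higher were PSMC3 and PSMD4, whose single probe set cannot show agreement. PSMG4, with several, did not meet this.

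PSMB8, PSMB9 and PSMB10 replace the active site subunits, and PSME1 and PSME2 form the cap, of the proteasome that interferon induces. They stood apart from the members after si-WDR5-2, PSMB8, PSMB9 and PSMB10 being at 3.19, 3.38 and 2.03 times the control and PSME1 and PSME2 at 2.18 and 1.48 times. Of the 3 probe sets of PSMB8, 1 was at -0.04 on the log2 scale after si-WDR5-2. With si-WDR5-3 the same genes were at 1.03, 0.782, 0.762, 0.970 and 0.938 times. The standard active site genes PSMB5, PSMB6 and PSMB7 lay between 0.866 and 1.00 times on the same arrays.

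After si-WDR5-2 and si-WDR5-3, 25 and 27 of the 37 proteasome genes were below the control (67.6% and 73.0%, against 54.4% and 50.3% of all genes). NFE2L1 mRNA was higher with both siRNAs, but its protein was not measured and a link to these genes was not tested. Its 3 probe sets past the filter had 833, 864 and 441 after si-WDR5-2 and 716, 621 and 335 after si-WDR5-3, against 474, 423 and 235 after control siRNA. Both knockdown arrays were above the control for all 3. The gene was at 1.88 times the control after si-WDR5-2 (log2 0.91, probe sets 0.81 to 1.03) and 1.47 times after si-WDR5-3 (log2 0.56, probe sets 0.51 to 0.60). With its 3 dim probe sets included it was at 0.60 and 0.34 on the log2 scale after si-WDR5-2 and si-WDR5-3. In the list of 18 regulators of proteasome gene transcription, 15 were measured past the filter, with medians of -0.02 and -0.03 after si-WDR5-2 and si-WDR5-3. Of these, 1 was lower and 2 were higher after si-WDR5-2, and 2 were lower and 2 higher after si-WDR5-3, where all genes had 10.1% lower and 14.7% higher after si-WDR5-2 and 7.55% and 9.44% after si-WDR5-3. NFE2L1 was the only one past the size in the same direction with both (1 of 15, where 5.30% of all genes were higher and 2.99% lower with both).

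Subunits and partners with other names were measured for 8 of 9 genes, with medians of -0.11 after si-WDR5-2 and -0.12 after si-WDR5-3. ADRM1, a ubiquitin receptor that sits on PSMD1, had 2636, 1214 and 529 after si-WDR5-2 and 2706, 1228 and 563 after si-WDR5-3, against 3029, 1487 and 673 after control siRNA. All 3 probe sets of ADRM1 were below the control with both siRNAs, at 0.816 and 0.836 times, just short of the limit for the gene. POMP, the chaperone that matures the core, had a median of 1552 after si-WDR5-2 and 1439 after si-WDR5-3, against 1750 after control siRNA, and a gene value of 0.905 and 0.822 times the control for these siRNAs in turn. SEM1, a small lid subunit, was not analysed here, and neither were PSMA6, PSMC5, PSMD7 and PSMD13. In the list of 24 genes of ubiquitin and its delivery, 20 were measured, with medians of -0.03 and -0.08 after si-WDR5-2 and si-WDR5-3. Of these, 1 was lower and 3 were higher after si-WDR5-2 (all genes 10.1% and 14.7%) and 2 lower and 1 higher after si-WDR5-3 (all genes 7.55% and 9.44%). The ubiquitin ligase gene UBE3A was higher with both siRNAs (1 of 20, where 5.30% of all genes were). As medians of its probe sets it had 575 after si-WDR5-2 and 618 after si-WDR5-3, against 414 after control siRNA. Its gene values were 1.37 and 1.48 times the control for these siRNAs in turn.

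As an alternative, limma took both siRNA arrays as knockdown samples against the control array, with 1 residual degree of freedom. Of 84 proteasome probe sets, 0 passed an adjusted p of 0.05, as did 0 of all 24647, and the smallest adjusted p of a member was 0.999. At an unadjusted p under 0.05, 1 member probe set was lower, a PSMD9 set with log2 ratios of -0.30 and -0.30 after si-WDR5-2 and si-WDR5-3 (1.24% of all probe sets), and 0 were higher (3.21%). Such a p rests on how far the siRNAs differ from each other and takes the lone control to vary like them.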

How the data were processed

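Total RNA of UM-UC-3 cells was hybridised to Affymetrix PrimeView arrays, 1 per condition. The authors deposited linear array intensities made with GCOS 1.4, as both the methods and the notes of the submitters state. Their background correction, summarisation and scaling were not given in the sources used here. Array medians were nearly equal, so no further scaling was applied. Few arrays limit the precision.

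Log2 was taken without an offset, and probe sets with a mean log2 value under the median of all probe sets were left out of gene values. Symbols came from GEO's platform annotation, in which 45064 probe sets have 1 symbol, 1756 several and 2473 none. A repeated symbol counts as 1. For 95 of the 96 member probe sets, the gene identifier also led to that symbol in RefSeq. Promoter sequences are from RefSeq (GRCh38.p14). The members, gene lists and size limit were chosen with earlier results of these data known. The genes described in full were those with the 5 lowest and 5 highest mean ratios, the 3 that differed most between the siRNAs each way, the active site subunits, PSMD14, PSMD4, PSME3, PSME4, PSMF1, the companions NFE2L1, POMP and ADRM1, and any other gene of the lists of subunits with other names, transcription regulators and ubiquitin that was past the limit with both siRNAs. Others are given by their ratios.

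Python 3.11.15, pandas 2.3.3 and numpy 2.4.6 were used, and limma 3.58.1 in R 4.3.3 (lmFit, eBayes with a trend, Benjamini-Hochberg adjustment over the 24647 probe sets past the filter). Simulated data served to test limma and the rule of size. Alternatives were quantile normalization, median centring, a filter at the 75th percentile or none, the brightest probe set of a gene, adding 84.8 (the 20th percentile of the table) before log2, limits of 0.2 and 0.6 and, chosen after seeing the data, leaving out _x_at and _s_at probe sets. No samples were left out.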

Additional observations from a re-analysis of the deposited data

Results flagged for a closer look

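PSMB9 and PSMB10, which are not among the proteasome genes counted above, were above the control for one siRNA and below it for the other, by at least 0.3 each. PSMB9 was at 1.75 after si-WDR5-2 and -0.35 after si-WDR5-3, a log2 difference of 2.11, and PSMB10 at 1.02 and -0.39, a difference of 1.45. The interferon-induced genes had medians of 1.84 and -0.65 after si-WDR5-2 and si-WDR5-3 and a median difference of 2.75, and 7 of the 8 were past 0.3 on opposite sides, OAS2 being at 1.79 and -0.25. Each siRNA has 1 array, and these differences were not tested. None of the 37 proteasome genes had opposite ratios of this size, but the share of all genes with such ratios was not counted. This therefore does not set the proteasome genes apart from other genes.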

How the results depend on the processing

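The median log2 ratio of the proteasome genes stayed below 0 under each of 7 alternatives, from -0.11 to -0.06 after si-WDR5-2 and from -0.12 to -0.09 after si-WDR5-3. At a limit of 0.2, 11 genes were lower (16.7% of all genes) and 4 higher (21.4%) after si-WDR5-2, 7 lower (13.8%) and 1 higher (16.0%) after si-WDR5-3, and 3 lower (6.10%) and 1 higher (9.50%) with both. At 0.6, 1 was lower (PSMC1; 3.15% of all genes) and 0 were higher (4.79%) after si-WDR5-2, 1 was lower (PSMA3; 1.44%) and 1 higher (PSMC3; 2.13%) after si-WDR5-3, and 0 were lower (0.322%) and 0 higher (1.09%) with both. Lower with both was 1 gene, PSMD1, with an offset, and likewise 1 without _x_at and _s_at probe sets, which left 34 genes. PSMD6 was the gene lost in both cases, and PSMD4, with only an _x_at set, and PSMC1 had no value in the second. With the brightest probe set, 2 genes were higher after si-WDR5-3 and 2 with both, PSMC3 and PSMG4. At the limit of 0.3, PSMC2 and PSMD3 were added to those lower after si-WDR5-2 with the brightest probe set or the 75th percentile filter. Quantile normalization added PSMD3 there. PSMF1 was added to those lower after si-WDR5-3 with the brightest probe set, with no filter, and without _x_at and _s_at probe sets. Over 29 named genes, 370 of 400 values moved by less than the median SD over probe sets (0.08 and 0.07), 30 moved by more and 0 called values changed sign. With limma 0 member probe sets passed the adjusted threshold under any setting run, and 0 to 3 had an unadjusted p under 0.05. No gene had a replicate array, and ratios of dim probe sets are drawn towards 0 by the floor of 45.5.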

Other observations

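Several genes around the proteasome differed between the siRNAs more than most of its subunits did. They were chosen after their values were seen, and the differences were not tested. SQSTM1, a receptor that carries ubiquitinated cargo to autophagy, was at 1.06 times the control after si-WDR5-2 and 0.654 times after si-WDR5-3, and NFE2L2, which drives antioxidant genes, at 1.19 and 0.798 times. MYC was at 1.17 and 0.772 times after si-WDR5-2 and si-WDR5-3, for 1 probe set. STAT3 was at 0.881 and 1.54 times and the ubiquitin ligase gene UBE4B at 0.787 and 1.20 times for the same siRNAs. USP14, a deubiquitinase of the regulatory particle, was at 0.723 and 0.920 times, and UCHL5, which shares that role, at 0.852 and 0.777 times. PAAF1, a chaperone of the base, was at 1.48 and 1.22 times after si-WDR5-2 and si-WDR5-3.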
